A study of Oryza sativa with 4 samples.

Results

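Plants build isoprenoids from 5-carbon units that are made along separate routes, the methylerythritol phosphate (MEP) route in plastids and the mevalonate (MVA) route in the cytosol. Prenyl transferases join the units into chains, and the chains become the tails of chlorophyll, tocopherol (vitamin E), plastoquinone, phylloquinone and ubiquinone, the dolichol of protein glycosylation and the lipid anchors of proteins. In leaves, plastoquinone and phylloquinone carry electrons in photosynthesis, ubiquinone carries them in mitochondria, and tocopherols protect membranes from oxidation. Chromatin accessibility at the genes of these routes is described here for the Oshmgb1 mutant of rice (Oryza sativa) and the wild type (WT).

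The peaks were taken as all those in the deposited table whose KEGG pathway annotation names Terpenoid backbone biosynthesis or Ubiquinone and other terpenoid-quinone biosynthesis. This gave 170 of the 46114 listed peaks. They lie at 88 of the 27130 genes to which the table assigns a peak. The first pathway held 88 peaks at 45 genes and the second 82 peaks at 43 genes, and no peak carried both. A region is listed only where these libraries gave enough reads for a peak, so the openness of the 170 peaks is what placed them in the table and is given only as a description. The annotation made no use of the difference between genotypes, but the pathways were chosen with earlier results of these data known. The default filter on low counts removed 0 peaks, so all 170 entered the test.

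ATAC-seq, which maps open DNA by where a transposase inserts adapters, had been run on leaf blades of 2 Oshmgb1 and 2 WT libraries, all from seedlings kept for 28 days under the condition that the labels call HP. HMGB proteins are abundant chromatin proteins that bend the DNA they bind. The sources used here do not state the kind of mutation, or how many plants or lines a library holds. They also do not say whether each library had its own plants, and p-values then reflect only how far these libraries differ, possibly for technical reasons. Reads in listed peaks numbered 10400677 and 8516630 in the Oshmgb1 libraries, against 7228483 and 8183354 in the WT libraries. A member peak had between 20 and 997 reads in a library. Among leaf genes, the table lists 21 peaks at 13 genes for chlorophyll a-b binding proteins and 6 peaks at 3 genes for the Rubisco small subunit. Their lowest levels in a library were 9.96 and 13.8 CPM. This is no check of the tissue, since listed peaks were called from reads of these libraries. An open region is also no measure of expression.

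Levels below are depth-scaled read counts (CPM, relative to all reads in listed peaks after TMM scaling), and CPM per kb of peak where regions are compared with each other. Fold changes are log2 ratios of Oshmgb1 over WT from edgeR's quasi-likelihood test over all peaks, with their standard error (SE), and adjusted p-values are Benjamini-Hochberg values over all 46114 peaks. Whether duplicate reads were removed is not stated in the sources used here. Coordinates are those of the deposited table, for which no genome build is named.

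No peak of either pathway passed the test. The peaks nevertheless lay mostly on one side: 120 of the 170 had a log2 fold change below 0, that is less accessible in Oshmgb1, against 51.1% of all listed peaks. With a library left out the count ran from 105 (without Oshmgb1 replicate 1) to 117 (without Oshmgb1 replicate 2). All listed peaks had 50.5% below 0 in both of these fits. The set was chosen with earlier results of these data known, so these shares are description only. All 11 peaks of phylloquinone genes lay below 0 (9 of 11 without WT replicate 2), whereas the ubiquinone genes had a median above 0. All 5 peaks of farnesyl diphosphate synthase genes and all 3 of dolichol genes also lay below 0. The same held for all 3 peaks of several other steps, such as the MEP enzyme DXR, so these small steps are not particular. The differences were small. In the middle of the range, the 170 peaks had a median log2 fold change of -0.09 and all peaks one of -0.0067, and individual peaks ran from -0.78 to 0.86.

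At an adjusted p under 0.05 the edgeR test called 0 of the 170 peaks, where it called 0.403% of all peaks, 148 higher in Oshmgb1 (0.321%) and 38 lower (0.0824%). The smallest adjusted p was 0.0859. At an unadjusted p under 0.05 there were 24 of the 170, 8 higher and 16 lower in Oshmgb1, set against 12.2% of all peaks, 6.94% higher and 5.22% lower. DESeq2 called 0 of the 170 and 0.0976% of all peaks, and gave 9 of the 170 at an unadjusted p under 0.05 (3.78% of all peaks). The authors' deposited table lists 0 of the 170 at an FDR under 0.05 (0.102% of all peaks) and 14 at a p under 0.05 (4.79% of all peaks). The 95% interval excluded a 2-fold difference in 162 of the 170 peaks, against 95.2% of all peaks. Scaling by the library totals behind the deposited RPKM gave 7 higher and 27 lower at an unadjusted p under 0.05. Leaving out WT replicate 2 gave 530 calls over the whole table and 1 among the 170 peaks, an intron peak of LOC_Os11g35040 described with its enzyme, while leaving out Oshmgb1 replicate 1 or 2 gave 103 or 75 calls over the whole table and 0 among the 170.

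Both Oshmgb1 libraries lay below both WT libraries at 65 of the 170 peaks and above them at 26, where each happened at 21.6% of all peaks. The sum of CPM over the terpenoid backbone peaks was 1857 and 1877 in the Oshmgb1 libraries, against 2039 and 2008 in the WT libraries. Over the terpenoid-quinone peaks it was 1511 and 1527 in the Oshmgb1 libraries, against 1640 and 1618 in the WT libraries. In both pathways the Oshmgb1 libraries were the lower pair, without overlap. The sum over all listed peaks was 992900 and 993200 CPM in the Oshmgb1 libraries, against 1014000 and 1000000 CPM in the WT libraries. Those totals are fixed by the TMM scaling, so their order is no measure of accessibility. The same scaling enters the pathway sums. The median log2 ratio over the 170 peaks ran from -0.15 to -0.07 over the 4 pairings of an Oshmgb1 with a WT library. The backbone pathway had 64 of 88 peaks below 0 and the quinone pathway 56 of 82. Without Oshmgb1 replicate 1 these counts were 57 and 48. By compartment of the enzyme, the share below 0 was 44 of 61 peaks for plastid enzymes, 45 of 60 for cytosolic ones and 7 of 15 for mitochondrial ones. Enzymes placed in several compartments had 24 of 34. The order of plastid and cytosolic enzymes rested on single libraries: without Oshmgb1 replicate 1 the counts were 40 of 61 and 34 of 60, with medians of -0.07 and -0.05. The mitochondrial share stayed the lowest with each library left out. Without WT replicate 1 it was 8 of 15, and the median was -0.07, against -0.08 for both plastid and cytosolic enzymes. Peaks of 1 gene are not independent: of the 48 genes with more than 1 peak, 20 had all their peaks below 0, 4 had all above, and 24 had peaks on both sides.

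**Figure D1:**
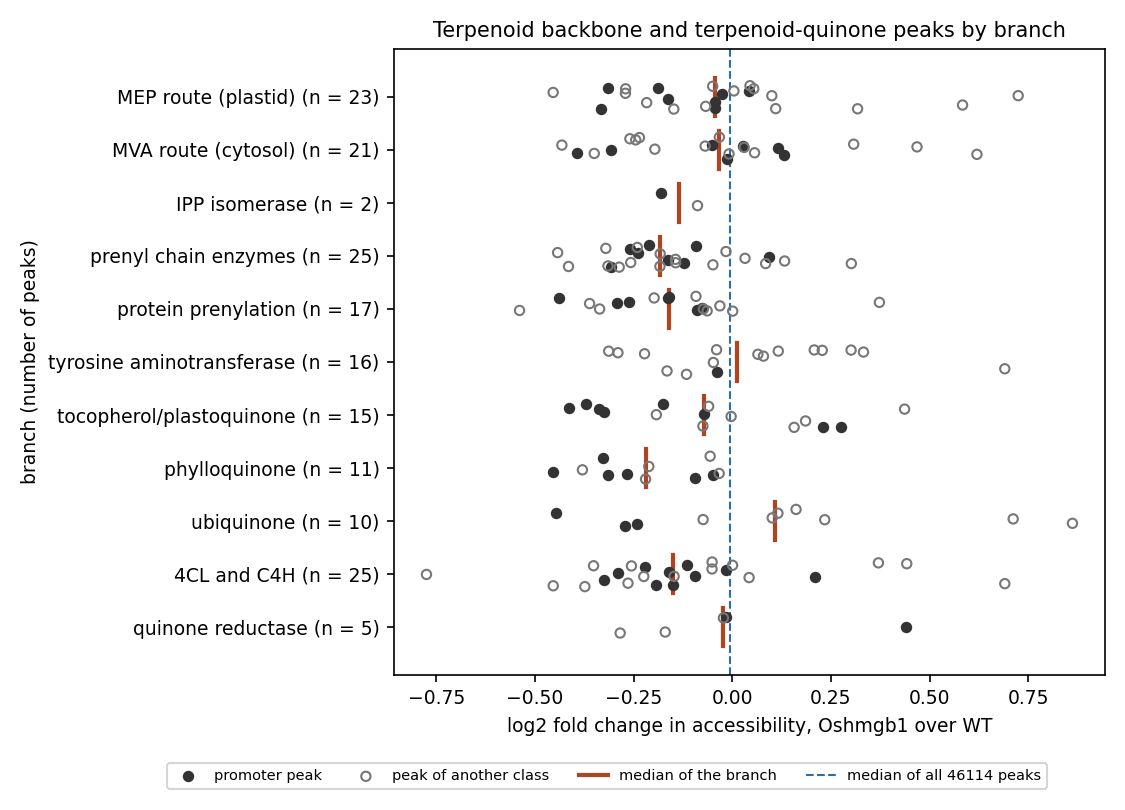
Log2 fold change in accessibility (Oshmgb1 over WT, horizontal axis) of each of the 170 peaks, grouped by branch of the pathways (vertical axis). Filled points are promoter peaks and open points peaks of other classes, red bars mark the median of a branch and the dashed line the median of all 46114 peaks. All 11 phylloquinone peaks lie below 0, and the ubiquinone promoter peaks lie below 0 while most of the other ubiquinone peaks lie above.

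The share below 0 was higher in promoter peaks than in peaks of the other classes. Of the 61 promoter peaks, 52 had a log2 fold change below 0, against 54.6% of all promoter peaks, and the median was -0.16 against -0.02 over all promoter peaks. Promoter peaks of the backbone pathway had 26 of 31 below 0 and those of the quinone pathway 26 of 30. Both Oshmgb1 libraries lay below both WT libraries at 28 of the 61, against 23.3% of all promoter peaks, and above them at 4, against 19.6%. Of the 61, 0 were called by edgeR, against 0.451% of all promoter peaks, and 4 had an unadjusted p under 0.05, against 11.4%. At peaks of the other classes 68 of 109 (62.4%) were below 0, against 49.2% of all peaks of those classes. The medians were -0.06 and 0.0047, so these peaks were shifted as well. The count of 52 depended on single libraries, being 41 (67.2%) without Oshmgb1 replicate 1 and 43 (70.5%) without WT replicate 1, where all promoter peaks had 50.9% and 48.9% below 0.

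The openness of a peak moved with its fold change over the whole table and is therefore given beside these counts. Divided into 4 bins of equal size by mean CPM, all listed peaks had 43.7%, 48.3%, 50.9% and 61.6% below 0 in order of rising openness. The 170 peaks had 53.5%, 67.6%, 73.3% and 85.4% below 0 in the same bins, with 43, 34, 45 and 48 peaks. Among promoter peaks alone the members had 66.7% of 12, 88.9% of 9, 89.5% of 19 and 90.5% of 21 below 0, and all promoter peaks 44.8%, 52.0%, 54.0% and 64.9%. The share was thus higher in the pathway peaks in every bin. With an offset fitted to openness, an alternative chosen after the values were seen, 116 of the 170 peaks were below 0, against 50.3% of all peaks, and the medians were -0.09 and -0.0015. Annotation to any KEGG pathway went with a smaller shift: 53.6% of the 8392 peaks at such genes were below 0, and 57.7% of their 2747 promoter peaks.

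**Figure D2:**
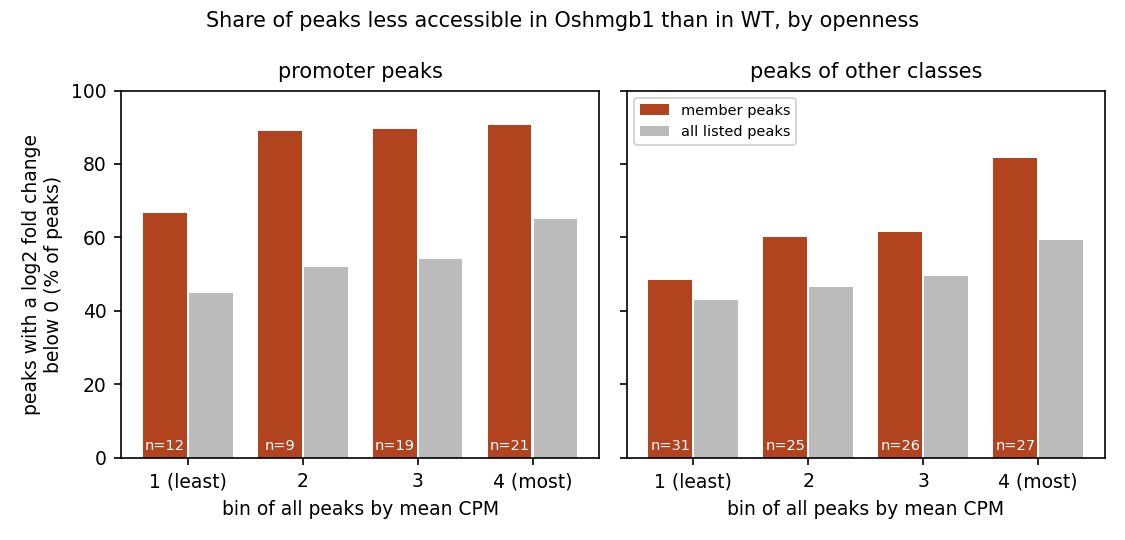
Share of peaks with a log2 fold change below 0 (percent, vertical axis) in 4 equal bins of all listed peaks by mean CPM (horizontal axis), for promoter peaks on the left and peaks of other classes on the right. Red bars are peaks of the terpenoid backbone and terpenoid-quinone pathways, with their number, and grey bars all listed peaks of that class. The red bar is the taller one in each bin, from 66.7% against 44.8% to 90.5% against 64.9% in promoter peaks.

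The MEP route in plastids begins with DXS, generally the step with the most control over its flux, and ends with HDR, which releases both 5-carbon units. Its 23 peaks at 9 genes had a median log2 fold change of -0.04 and 14 values below 0, and 8 of them were promoter peaks, of which 7 were below 0. The sum of their CPM was 433 and 428 in the Oshmgb1 libraries, against 465 and 454 in the WT libraries. Of the route's enzymes the kinase CMK was not analysed here.

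The most open MEP peak per kb was the promoter peak of CLA1 (LOC_Os05g33840, a DXS gene; chromosome 5, 19962904 to 19963572, at -118 bp from the start), at 60.6 CPM per kb. It had 35.3 and 45.1 CPM in the Oshmgb1 libraries, against 42.8 and 39.0 CPM in the WT libraries, so the genotypes overlapped (log2 fold change -0.03 ± 0.13 SE, 95% interval -0.29 to 0.23). Its sign changed when either Oshmgb1 replicate 1 or WT replicate 1 was left out, and with the offset fitted to openness. The 3 intron peaks of the same gene were at -0.15, -0.27 and -0.05. The gene for DXS2 (LOC_Os07g09190, listed as Os07g0190000) differed between its ends. Its 3′ UTR peak (chromosome 7, 4823998 to 4824398) had 8.69 and 8.51 CPM in the Oshmgb1 libraries, against 4.07 and 6.23 CPM in the WT libraries. This was the highest log2 fold change of the route, 0.72 ± 0.25 SE, with an edgeR adjusted p of 0.178, and its promoter peak was at 0.04 ± 0.22 SE.

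DXR, the second enzyme, had peaks in an exon, the 5′ UTR and the promoter of LOC_Os01g01710, with log2 fold changes of -0.27, -0.22 and -0.04. The third enzyme, MCT (ISPD, LOC_Os01g66360), had an intron peak at 0.32 ± 0.24 SE and a 3′ UTR peak at -0.07 ± 0.16 SE. The cyclase MDS (ISPF, LOC_Os02g45660) had a single peak, downstream of the gene on chromosome 2 (27770590 to 27771277). It measured 17.5 and 12.6 CPM in the Oshmgb1 libraries, against 23.1 and 18.5 CPM in the WT libraries. The Oshmgb1 pair lay below the WT pair, with a log2 fold change of -0.45 ± 0.19 SE and an edgeR adjusted p of 0.292. The promoter peak of HDS (ISPG, LOC_Os02g39160, the iron-sulfur enzyme before HDR) had 49.5 and 47.2 CPM in the Oshmgb1 libraries, against 49.5 and 50.2 CPM in the WT libraries, a difference within its error (-0.04 ± 0.12 SE).

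HDR is annotated at 3 neighbouring genes of chromosome 3 with 8 peaks, and reads of similar copies may have been divided between them. At LOC_Os03g52170 both peaks in the upstream promoter were below 0, at -0.33 ± 0.18 SE and -0.32 ± 0.21 SE, while its 5′ UTR and intron peaks were at 0.05 and 0.04. An intron peak of LOC_Os03g52210 had 7.92 and 8.16 CPM in the Oshmgb1 libraries, against 5.47 and 5.25 CPM in the WT libraries (0.58 ± 0.24 SE, edgeR adjusted p 0.297), whereas the promoter peak of that gene was at -0.19 ± 0.14 SE. At DXS2 both peaks were thus above 0, the 3′ UTR peak further than the promoter peak, and at LOC_Os03g52210 the intron and the promoter lay on opposite sides of 0.

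The MVA route in the cytosol feeds sterols and sesquiterpenes, and HMG-CoA reductase (HMGR) is its main point of control. Its 21 peaks at 11 genes had a median log2 fold change of -0.03, with 13 values below 0, and 4 of its 7 promoter peaks were below 0. The sum of CPM was 445 and 466 in the Oshmgb1 libraries, against 471 and 467 in the WT libraries, so that all 4 sums lay within a narrow range. The median was on either side of 0 with single libraries left out, at 0.0022 without Oshmgb1 replicate 1 and -0.12 without Oshmgb1 replicate 2.

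The HMGR gene HMG3 (LOC_Os08g40180) had the most open peaks per kb of both pathways. Its promoter peak on chromosome 8 (25425540 to 25425916, at -923 bp) measured 263 CPM per kb, a level at the 99.7th percentile of all listed peaks, and the neighbouring peak at 25424902 to 25425220 measured 167 CPM per kb. The median was 28.3 CPM per kb over the 170 peaks and 25.6 over all peaks. The first of these peaks had 95.2 and 99.8 CPM in the Oshmgb1 libraries, against 105 and 97.5 CPM in the WT libraries (log2 fold change -0.05 ± 0.10 SE, 95% interval -0.25 to 0.14). The second had 53.2 and 54.6 CPM in the Oshmgb1 libraries, against 52.9 and 52.9 CPM in the WT libraries (0.03 ± 0.12 SE). These are the 2 peaks with the tightest bounds of the MVA route, and neither was separated from its WT level by more than its error. A second HMG3 entry (LOC_Os09g31970) had 4 peaks of 18.8 to 27.8 CPM per kb with log2 fold changes from -0.39 to 0.31, and HMG1 (LOC_Os02g48330) had 3 peaks at -0.03, -0.24 and -0.43.

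Upstream of HMGR, the thiolase AACT had an intron peak of LOC_Os01g02020 (listed with the Arabidopsis identifier At5g47720) with 8.21 and 10.1 CPM in the Oshmgb1 libraries, against 6.59 and 6.60 CPM in the WT libraries. Its log2 fold change was 0.47 ± 0.24 SE (edgeR adjusted p 0.419), and an intron peak of AAT1 (LOC_Os09g07830), the other AACT gene, was at 0.06 ± 0.18 SE. HMG-CoA synthase genes (HMGS) gave -0.31 ± 0.19 SE at the promoter of LOC_Os08g43170, -0.24 ± 0.15 SE and -0.26 ± 0.18 SE at the 5′ UTR and an intron of LOC_Os09g34960, and 0.13 ± 0.24 SE at LOC_Os03g02710.

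Downstream of it, mevalonate kinase (LOC_Os10g18220, listed as At5g27450) had the highest value of the route, at a 5′ UTR peak with 7.64 and 9.45 CPM in the Oshmgb1 libraries, against 7.15 and 4.03 CPM in the WT libraries. The WT libraries differed from each other more than the nearest libraries of the 2 genotypes did, and the log2 fold change was 0.62 ± 0.25 SE (edgeR adjusted p 0.273). The broad exon peak of that gene, 2476 bp wide, had 46.7 and 47.5 CPM in the Oshmgb1 libraries, against 45.7 and 46.4 CPM in the WT libraries. The decarboxylase gene MVD2 (LOC_Os02g01920) had -0.35 ± 0.17 SE in an exon (edgeR adjusted p 0.400) and 0.12 ± 0.19 SE at its promoter, and phosphomevalonate kinase (PMK, LOC_Os03g48160) had -0.01 ± 0.20 SE. Isopentenyl diphosphate isomerase (IPI1), which balances the 2 units, was at -0.18 ± 0.10 SE at the strong promoter peak of LOC_Os07g36190, with 80.8 and 88.9 CPM in the Oshmgb1 libraries, against 101 and 91.5 CPM in the WT libraries.

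Enzymes that build and finish prenyl chains had values below 0 at 20 of 25 peaks, with a median log2 fold change of -0.18, and the count ran from 19 to 21 under the alternative settings. The sum of their CPM was 606 and 618 in the Oshmgb1 libraries, against 683 and 681 in the WT libraries. The 5 peaks of farnesyl diphosphate synthase (FPS), the branch point to sterols, ran from -0.42 to -0.12, and at 4 of them the Oshmgb1 libraries were both lower, as at 21.6% of all peaks. Its most open peak by CPM, the promoter of LOC_Os01g50050, was the exception, with 53.7 and 48.2 CPM in the Oshmgb1 libraries, against 59.8 and 51.4 CPM in the WT libraries. The 3 peaks assigned to geranylgeranyl diphosphate synthase, the source of plastid chains of 20 carbons, were at -0.29, -0.26 and -0.09. Of these, the 3′ UTR peak of the gene listed as GGR (LOC_Os02g44780) has its nearest gene start in another gene. Geranylgeranyl reductase (CHLP, LOC_Os02g51080), which makes the phytyl tail of chlorophyll and tocopherol, had 49.1 and 56.9 CPM in the Oshmgb1 libraries at its promoter, against 56.3 and 62.0 CPM in the WT libraries (-0.16 ± 0.12 SE, edgeR adjusted p 0.594).

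The dolichol enzymes gave the clearest separation of the branch. The 5′ UTR peak of NUS1 (LOC_Os03g10080, a subunit of dehydrodolichyl diphosphate synthase; chromosome 3, 5088968 to 5090238) had 68.1 and 69.0 CPM in the Oshmgb1 libraries, against 81.2 and 89.2 CPM in the WT libraries. The 5′ UTR peak of LOC_Os06g07120 (dehydrodolichyl diphosphate synthase 6, listed as At2g17570; chromosome 6, 3404894 to 3405716) had 25.7 and 25.3 CPM in the Oshmgb1 libraries, against 35.9 and 33.5 CPM in the WT libraries. At both genes the Oshmgb1 pair lay below the WT pair, with log2 fold changes of -0.32 ± 0.10 SE and -0.44 ± 0.15 SE. The edgeR adjusted p of these 2 peaks was 0.164 and 0.162, so neither was called. The third peak of this step, in an intron of LOC_Os02g10400, was also lower in both Oshmgb1 libraries, at -0.14 ± 0.15 SE.

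Solanesyl diphosphate synthases make the long tails of plastoquinone in plastids (SPS2 and SPS3) and of ubiquinone in mitochondria (SPS1), and their 12 peaks were divided, with 5 above 0. An intron peak of SPS2 (LOC_Os05g50550) had 28.0 and 32.0 CPM in the Oshmgb1 libraries, against 41.4 and 33.5 CPM in the WT libraries (-0.32 ± 0.14 SE, edgeR adjusted p 0.324), and its promoter peak was at 0.09 ± 0.19 SE. The broad intron peak of SPS3 (LOC_Os12g17320) was at 0.08 ± 0.13 SE.

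Enzymes that attach prenyl anchors to proteins or process them afterwards are also part of the backbone map. The 2 peaks of farnesol kinase, which does not act on proteins, were counted with them. This group had 15 of 17 peaks below 0, all 7 promoter peaks among them, and a median log2 fold change of -0.16. The count was 11 of 17 without WT replicate 2, with a median of -0.21. Without Oshmgb1 replicate 1 it was 13 of 17, with a median of -0.16. The lowest was an intron peak of LOC_Os01g61560, annotated to farnesol kinase and described as phytol kinase 2. It had 11.1 and 10.03 CPM in the Oshmgb1 libraries, against 16.1 and 14.7 CPM in the WT libraries, which is -0.54 ± 0.21 SE (edgeR adjusted p 0.254). All 3 peaks of the CAAX protease FACE1 (LOC_Os02g45650), the neighbour of the MDS gene on chromosome 2, were below 0, at -0.29, -0.36 and -0.20.

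On the quinone side, tyrosine aminotransferase (TAT) opens the way from tyrosine to homogentisate, the ring of tocopherol and plastoquinone. Its 16 peaks at 5 genes were evenly divided around 0, with a median log2 fold change of 0.01, which was -0.02 without Oshmgb1 replicate 2. An intron peak of LOC_Os11g35040 (chromosome 11, 20527178 to 20527980; listed as naat-A, the symbol of a barley nicotianamine aminotransferase) had 17.0 and 16.6 CPM in the Oshmgb1 libraries, against 8.56 and 12.1 CPM in the WT libraries. The genotypes were separate, at 0.69 ± 0.21 SE with an edgeR adjusted p of 0.115. It passed, with an adjusted p of 0.0293, only when WT replicate 2, the higher WT library, was left out. A further naat-A entry (LOC_Os11g42510) had an intron peak on the other side, with 48.4 and 49.2 CPM in the Oshmgb1 libraries, against 59.9 and 61.3 CPM in the WT libraries (-0.31 ± 0.11 SE, edgeR adjusted p 0.221). A 3′ UTR peak of LOC_Os06g23684 had 28.6 and 30.0 CPM in the Oshmgb1 libraries, against 23.3 and 23.2 CPM in the WT libraries (0.33 ± 0.16 SE).

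The later tocopherol and plastoquinone enzymes had 10 of 15 peaks below 0 and a median of -0.07, which was -0.0031 without WT replicate 1 and -0.14 without WT replicate 2. The dioxygenase HPD (LOC_Os02g07160), which makes homogentisate, was at -0.07 ± 0.21 SE at its promoter and 0.19 ± 0.24 SE in an intron. Prenyl transferases that add the tail were at 0.27 ± 0.24 SE and -0.37 ± 0.24 SE at the promoter peaks of HPT1 (LOC_Os06g44840) and at -0.34 ± 0.22 SE at HPT2 (LOC_Os07g38850). A related transferase of tocotrienol synthesis, HGGT (LOC_Os06g43880), was at -0.003 ± 0.23 SE. The genes LOC_Os02g39290 and LOC_Os05g23950 carry the same KEGG entry as HPT2. The first of them is described as a TRAF-like protein. Its exon peak was at 0.44 ± 0.22 SE and its promoter peak at -0.32 ± 0.20 SE, with the broad peak upstream of LOC_Os05g23950 at 0.23 ± 0.13 SE.

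Of the enzymes that finish the ring, tocopherol cyclase (VTE1, LOC_Os02g17650; promoter peak on chromosome 2, 10164585 to 10165018) had 13.6 and 17.7 CPM in the Oshmgb1 libraries, against 20.2 and 21.3 CPM in the WT libraries. Its promoter peak was the lowest of this branch, at -0.41 ± 0.19 SE (edgeR adjusted p 0.338), while an intron peak of the gene was at 0.16 ± 0.17 SE. The methyltransferases were closer to 0, with the most open peak of LOC_Os12g42090 at -0.07 ± 0.14 SE and VTE4 (LOC_Os02g47310, which converts gamma- to alpha-tocopherol) at -0.06 ± 0.16 SE.

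Phylloquinone (vitamin K1) serves in photosystem I. All 11 peaks of its 7 genes had a log2 fold change below 0, with a median of -0.22, and both Oshmgb1 libraries were the lower pair at 7 of them, against 21.6% of all peaks. The count below 0 was 9 of 11 without WT replicate 2, and 10 or 11 under the other settings. The median was -0.11 without WT replicate 2 and -0.12 without Oshmgb1 replicate 2. The sum of CPM was 204 and 189 in the Oshmgb1 libraries, against 219 and 234 in the WT libraries. By edgeR 0 of the 11 were called, and 1 was lower at an unadjusted p under 0.05.

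The lowest was the promoter peak of AAE14 (LOC_Os08g03630, succinylbenzoate-CoA ligase; chromosome 8, 1719802 to 1720142), with 12.0 and 11.4 CPM in the Oshmgb1 libraries, against 16.8 and 15.4 CPM in the WT libraries (-0.45 ± 0.20 SE, edgeR adjusted p 0.339). Isochorismate synthase (ICS2, LOC_Os09g19734), which also opens a route to salicylic acid, was at -0.38 ± 0.23 SE at its 5′ UTR and -0.06 ± 0.18 SE in an intron. The prenyl transferase ABC4 (LOC_Os03g09060), which adds the phytyl tail, had 30.4 and 23.8 CPM in the Oshmgb1 libraries at its promoter, against 33.8 and 31.6 CPM in the WT libraries (-0.27 ± 0.15 SE). The quinone reductase NDC1 (LOC_Os06g11140) was at -0.32 ± 0.17 SE and -0.10 ± 0.16 SE in its promoter. A neighbouring gene with the same KEGG entry, LOC_Os06g11135, is described as a tuliposide-converting enzyme and was at -0.33 ± 0.23 SE. By that KEGG entry its peak is counted among the 11, although its description names no phylloquinone enzyme. MENB (LOC_Os01g47350) and PHYLLO (LOC_Os02g37090) were within 0.05 of 0.

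Ubiquinone genes had a median of 0.11 over 10 peaks, of which 4 were below 0. The median was above 0 with each library left out, but only 0.03 without WT replicate 1, where 5 of the 10 were below 0. They also held the peak with the smallest p of both pathways. The exon peak of LOC_Os08g29970 (listed as PPT1, the COQ2 transferase that joins the ring to its tail; chromosome 8, 18405537 to 18405921, 52 bp inside the gene start) had 8.59 and 10.7 CPM in the Oshmgb1 libraries, against 4.77 and 5.74 CPM in the WT libraries. This was the largest fold change of the 170 peaks, 0.86 ± 0.25 SE (95% interval 0.38 to 1.35), with an unadjusted p of 0.000641 and an edgeR adjusted p of 0.0859. A peak downstream of another PPT1 gene (LOC_Os08g23320; 14077617 to 14078017), whose nearest gene start is that of another gene, had 7.64 and 8.51 CPM in the Oshmgb1 libraries, against 5.47 and 4.40 CPM in the WT libraries. Its log2 fold change was 0.71 ± 0.25 SE (edgeR adjusted p 0.193), while the strong 5′ UTR peak of that gene was at -0.07 ± 0.11 SE. Both were weak peaks, at 19.4 and 16.2 CPM per kb, while the 5′ UTR peak of LOC_Os08g23320 measured 33.1 CPM per kb.

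The 3 ubiquinone promoter peaks went the other way. COQ5 (LOC_Os01g74520, a ring methylase; chromosome 1, 43162444 to 43163305, at -25 bp) had 22.3 and 20.99 CPM in the Oshmgb1 libraries, against 30.4 and 28.7 CPM in the WT libraries. The Oshmgb1 pair lay below the WT pair, with -0.45 ± 0.16 SE and an edgeR adjusted p of 0.201. The promoter peaks of PGT-1 (LOC_Os08g29900, another COQ2 entry) and of a coq6 gene (LOC_Os03g62260, a ring hydroxylase) were at -0.27 ± 0.15 SE and -0.24 ± 0.23 SE. Both peaks of the adjacent coq6 gene LOC_Os03g62250 were above 0, at 0.10 and 0.16.

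The KEGG quinone map also takes in cinnamate 4-hydroxylase (C4H) and 4-coumarate-CoA ligase (4CL), which are shared with lignin and flavonoid synthesis and lead to the ring of ubiquinone. Their 25 peaks had 19 values below 0 and a median of -0.15, which became 14 values and -0.05 without Oshmgb1 replicate 1. Of the 16 peaks lower in Oshmgb1 at an unadjusted p under 0.05 they held 6, 5 of them at 4CL genes, where 5.22% of all peaks were lower at that p. The 3′ UTR peak of 4CL4 (LOC_Os06g44620; chromosome 6, 26945110 to 26946144) had 52.6 and 49.1 CPM in the Oshmgb1 libraries, against 63.1 and 66.7 CPM in the WT libraries. It was separate between genotypes, at -0.35 ± 0.11 SE with an edgeR adjusted p of 0.147, and an intron peak of the gene was at -0.37 ± 0.17 SE. Its 2 promoter peaks were at -0.15 and -0.02. In 4CL3 (LOC_Os02g08100) 4 of 5 peaks were lower in both Oshmgb1 libraries, as at 21.6% of all peaks. These 4 ran from -0.29 to -0.16, and the most open one of the gene, in an intron, was at 0.00.

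The lowest value of all 170 peaks was in the exon peak of the C4H gene CYP73A2 (LOC_Os05g25640; chromosome 5, 14900232 to 14900578). It had 7.16 and 5.36 CPM in the Oshmgb1 libraries, against 10.1 and 11.5 CPM in the WT libraries, a log2 fold change of -0.78 ± 0.23 SE with an edgeR adjusted p of 0.115. On the opposite side of 0, an exon peak of LOC_Os10g35080, a gene with a 4CL entry and no listed symbol, had 6.59 and 6.65 CPM in the Oshmgb1 libraries, against 2.81 and 5.25 CPM in the WT libraries (0.69 ± 0.26 SE, edgeR adjusted p 0.240). The CYP73A14 entries LOC_Os02g26770 and LOC_Os02g26810 share a description and lie close together, so that reads may be divided between them. Their promoter peaks were at 0.21 and -0.10. The quinone reductases of the FQR1 type had 4 of 5 peaks below 0, with a median of -0.02, but 2 of 5 and 0.18 without WT replicate 1 and a median of -0.27 without WT replicate 2.

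**Figure D3:**
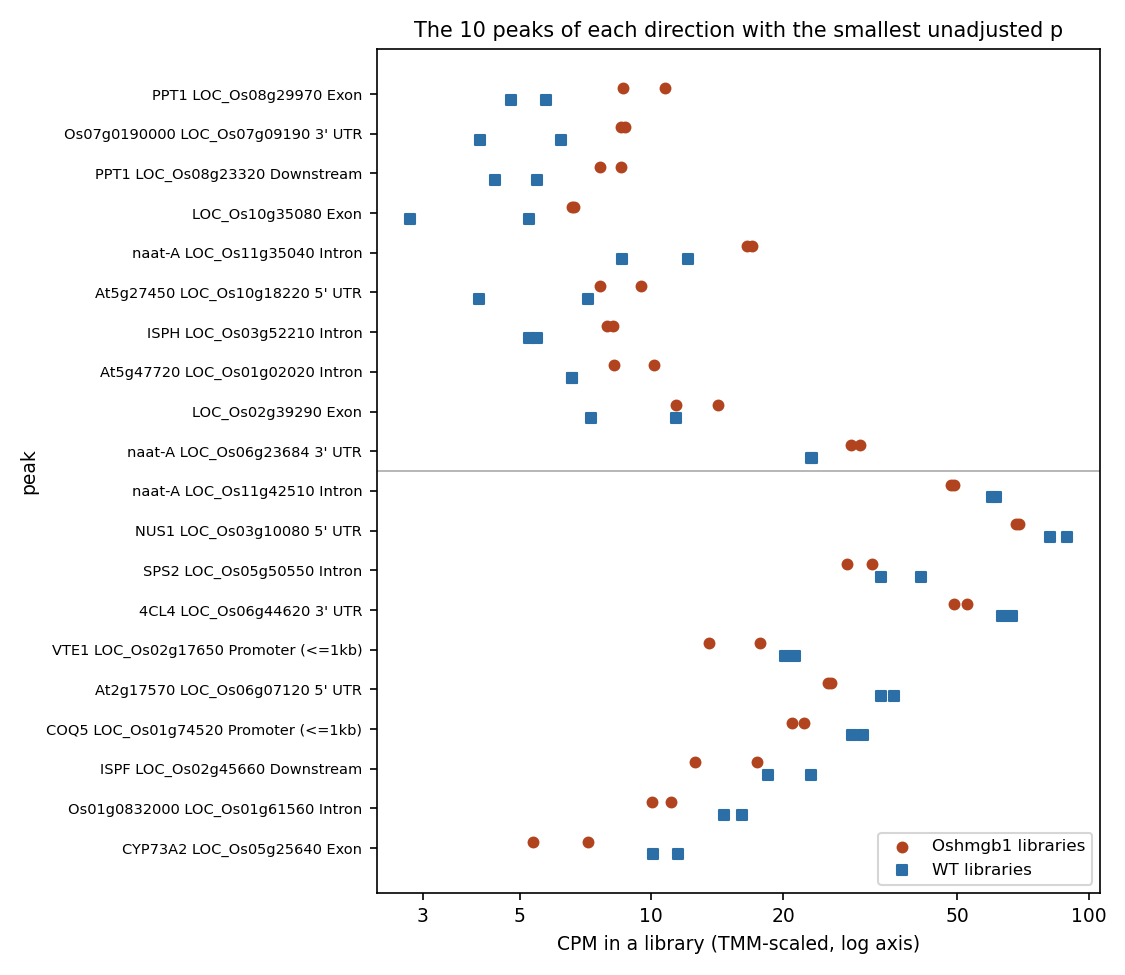
CPM in each library (log axis) of the 20 peaks with the smallest unadjusted p, 10 above and 10 below the grey line by the direction of their log2 fold change. Circles are Oshmgb1 libraries and squares WT libraries. Of the 10 peaks higher in Oshmgb1, 7 have both WT libraries under 8 CPM, while those lower in Oshmgb1 include stronger ones such as NUS1, with 68.1 and 69.0 CPM in Oshmgb1, against 81.2 and 89.2 CPM in WT.

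Of the 24 peaks at an unadjusted p under 0.05, 7 kept it with each library left out in turn: those at LOC_Os08g29970 and LOC_Os11g35040, higher in Oshmgb1, and those at CYP73A2, 4CL4 (3′ UTR), LOC_Os06g07120, NUS1 and COQ5, lower in Oshmgb1. None of these 7 was called in edgeR with all 4 libraries. Other peaks among the named ones leaned on 1 library. The exon peak of LOC_Os10g35080 was at 0.33 without WT replicate 1 and 1.24 without WT replicate 2, and the 5′ UTR peak of mevalonate kinase at 1.07 and 0.25. The 3′ UTR peak of DXS2 was at 0.46 without WT replicate 1. ISPF was at -0.71 without Oshmgb1 replicate 1 and -0.25 without Oshmgb1 replicate 2, and the VTE1 promoter at -0.22 and -0.61. The SPS2 intron peak was at -0.16 without WT replicate 1, and the MVD2 exon peak at -0.23 without WT replicate 2. The direction of each of these stayed as with all 4 libraries. By position, the 44 promoter peaks within 1 kb had 39 values below 0 and a median of -0.16, the 17 from 1 to 2 kb had 13 and -0.16, and the 15 at 5′ UTRs had 12 and -0.17. The 15 at 3′ UTRs also had 12 below 0, with a median of -0.07, and the 5 downstream of genes had 3 and -0.03. Exon and intron peaks were more evenly divided, with 15 of 28 and 26 of 46 below and medians of -0.05 and -0.04. Shares over all peaks of each of these classes are not given here. The 8 peaks higher in Oshmgb1 at an unadjusted p under 0.05 were 2 in exons, 2 in introns, 2 in 3′ UTRs, 1 in a 5′ UTR and 1 downstream of a gene, and 0 in promoters. Intron peaks made up 27.1% of the 170 against 18.0% of all listed peaks, and downstream peaks 2.94% against 11.7%.

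**Figure D4:**
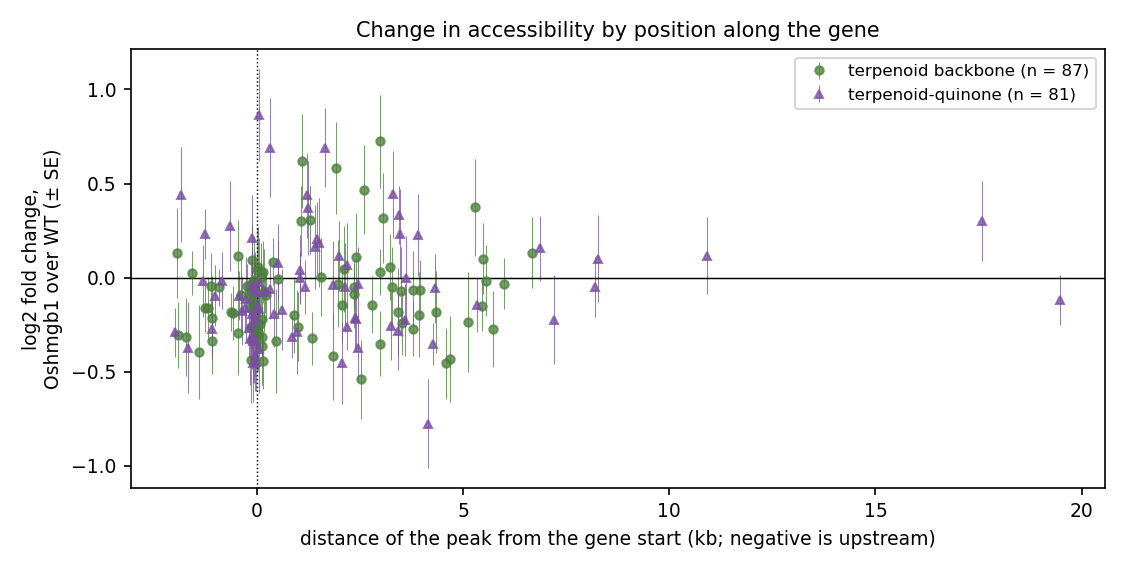
Log2 fold change (Oshmgb1 over WT, vertical axis, bars are ± SE) against the distance of the peak from its gene's start in kb (horizontal axis, negative is upstream), for the 87 backbone and 81 quinone peaks whose nearest gene start is that of the annotated gene. Most values around the start lie below 0, and the highest ones lie at the start or downstream of it.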

How the data were processed

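Per the file headers, the authors deposited a raw read count for each merged peak and library, without normalization, and these counts were tested. The submitters' processing notes name ChIPseeker 1.16.1, MACS2 2.1.2, Bowtie2 2.4.4, fastp 0.23.0 and bcl2fastq 2.19. The sources used here state neither the genome build nor any Tn5 shift, duplicate removal or handling of organelle reads. From the RPKM that the authors deposited, only library totals were derived, using peaks above 300 reads. The authors' deposited log2 fold changes, with each p-value and FDR, gave an alternative set of calls. Columns of other samples numbered 0.

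R 4.3.3 with edgeR 4.0.16 was used, with TMM scaling, the default filter and the quasi-likelihood test of genotype with no covariate. The test was also run on simulated data, but how many small differences it recovered is not given here. DESeq2 1.42.0 was an alternative, and 10 of its adjusted p-values among the peaks described were not given. Other alternatives were the scaling, the filter, a replicate block, each library left out, promoter peaks only and 1 peak per gene. Intervals are 95%. Between libraries of 1 genotype, a chi-square of the counts gave 2.25 (Oshmgb1) and 2.50 (WT) per degree of freedom, a scatter above that of counting alone. Whether duplicate reads were removed is not stated, and kept duplicates also raise this value. It therefore cannot tell whether the libraries came from separate plants. Plots came from Python 3.11.15 and its matplotlib 3.10.9.

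The peaks, lists and tests were chosen with earlier results of these data known. Steps, branches and compartments were assigned to KEGG entries from background knowledge. The rule for named peaks took every called peak, the 10 smallest p-values in each direction and the most open peak of each core enzyme step, which gave 49 peaks. Further peaks of the same steps were chosen after their values were seen. Symbols follow the deposited annotation, which borrows some from other species. No genome was used here, so no sequence is shown.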

Additional observations from a re-analysis of the deposited data

How the results depend on the processing

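Among the 170 peaks, 0 were called by edgeR and under each scaling, DESeq2 also called 0, the authors' deposited table lists 0, and leaving out a library gave from 0 to 1. Over the whole table DESeq2 called 45 peaks, the authors' deposited table lists 47, and leaving out a library gave from 75 to 530. The scaling moved the split of calls: 133 of 221 were higher in Oshmgb1 with the totals behind the RPKM, 92 of 146 with the offset fitted to openness (chosen after seeing the data), and 173 of 203 with the totals of listed peaks, against 148 of 186. The count of the 170 at an unadjusted p under 0.05 was 9 in DESeq2, 14 in the authors' deposited table, 4 over promoter peaks only, 15 over the most open peak of each gene and 21 to 23 with a library left out. By direction, 7 were higher and 27 lower with the totals behind the RPKM, 11 and 15 with the totals of listed peaks, and 7 and 16 with the offset. Their median log2 fold change was -0.1357 in the authors' deposited table, -0.136 with the totals behind the RPKM, -0.1629 over promoter peaks and -0.1302 to -0.0754 with a library left out. The cause was not tested, except that promoter peaks and 1 peak per gene are fewer peaks. Scaling moved the median of all peaks by -0.0432 at most, and the authors' deposited values by -0.0433. The filter removed 0 peaks, so omitting it altered nothing. With a library left out, the lone library of its genotype is assumed to vary like the others.

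Named peaks near 0 changed sign in places. With the offset, HMG3 (LOC_Os08g40180, within 1 kb) was at 0.0101, ISPG at 0.0031 and CLA1 at 0.0155. The mevalonate kinase exon peak was at -0.0144 in the authors' deposited table and -0.0133 with the totals behind the RPKM. With the totals of listed peaks PMK was at 0.0109 and HGGT at 0.016, which was at 0.0002 in DESeq2. With a library left out, the ranges that crossed 0 were -0.4428 to 0.0629 (AAE14 intron), -0.1696 to 0.0255 (LOC_Os12g42090), -0.2283 to 0.1265 (ISPD 3′ UTR), -0.2319 to 0.1273 (VTE4), -0.2335 to 0.1033 (HPD promoter), -0.0446 to 0.1491 (AAT1), -0.2198 to 0.0847 (ICS2 intron), -0.1764 to 0.0984 (DXR promoter), -0.2094 to 0.1494 (CLA1 promoter), -0.3392 to 0.3856 (PHYLLO), -0.1343 to 0.1406 (PMK) and -0.1889 to 0.2302 (HGGT). The cause was not tested.

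Replicate numbers did not pair the libraries: deviations of same-numbered libraries had a correlation of -0.0355, and the numbers are shared names only. The fit with the replicate number as a block called 179 peaks over the whole table and 0 of the 170, and gave 24 at an unadjusted p under 0.05 with a median of -0.0958. Under it PHYLLO was at 0.0033, PMK at 0.0013 and HGGT at 0.0111, and no other named peak changed sign.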

Other observations

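Pathways that use or supply the same precursors were set beside the terpenoid genes by their KEGG annotation, and 0 of their peaks were called by edgeR, where 0.403% of all peaks were. Carotenoid synthesis, which draws on geranylgeranyl diphosphate for photoprotective pigments, had 59 peaks at 32 genes with a median log2 fold change of -0.04 (Oshmgb1 over WT), 2 higher and 6 lower at an unadjusted p under 0.05 (12.2% of all peaks). Diterpenoid synthesis, the route to gibberellins and rice phytoalexins, had 67 peaks with a median of -0.06 and 5 in each direction. Porphyrin metabolism, the source of chlorophyll, had 80 peaks with a median of -0.04, 2 higher and 4 lower, and shares 2 peaks with the terpenoid set. Monoterpenoid synthesis had 11 peaks with a median of -0.16, 0 higher and 1 lower.

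The other 4 pathways had medians above 0. Steroid synthesis had 77 peaks with a median of 0.02, 3 higher and 2 lower, and brassinosteroid synthesis had 29 peaks with a median of 0.04, 3 higher and 0 lower. Sesquiterpenoid and triterpenoid synthesis had 29 peaks at 12 genes with a median of 0.10, 3 higher and 1 lower. Tyrosine metabolism, which supplies the quinone ring and shares 18 peaks with the terpenoid set, had 75 peaks with a median of 0.04, 9 higher and 2 lower. These differences between pathways were not tested.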
